A study of Caenorhabditis elegans with 16 samples.

Results

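The *nas* genes of *Caenorhabditis elegans* encode astacin-type metalloproteases. They were taken from the count table as every gene whose symbol is "nas-" followed by a number, which gave 37 of the 46904 genes in the table. Astacins are zinc-dependent proteases that are made with a propeptide blocking the active site, and most are secreted or sit at the cell surface. In vertebrates the family includes meprins and the procollagen C-proteinase BMP1. In the nematode, astacins are known for work on the extracellular matrix, such as digestion of the eggshell at hatching, processing of cuticle collagens and shedding of the old cuticle at the moult.

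RNA of whole worms was sequenced after repeated contraction of the body wall muscle by light (optogenetically induced mechanical muscle stress, OptIMMuS). All 4 groups were young adults of the same transgenic strain, PP3189, so the controls held the channel as well. The strain carries the integrated transgene hhIs251, in which the *myo-3* promoter drives a FLAG-tagged light-gated cation channel, ChR2 with the changes C128S and H134R, in body wall muscle, ahead of the 3' UTR of *unc-54*. *Cbrunc-119*(+) is its second element. The channel needs the cofactor all-trans retinal (ATR). From the L1 stage the worms fed at 18 °C on *E. coli* OP50 with 0.1 mM ATR or without ATR, and the last 16 h before adulthood were spent in the light incubator.

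The first group was light plus ATR, in which worms given ATR received 455 nm light in 5 s pulses, each followed by 20 min of darkness, over 8 h. Its controls were light minus ATR, with the same pulses and no ATR, dark plus ATR, with ATR and no pulses, and dark minus ATR, with neither. Each group had 4 libraries, 16 in all. The study's methods describe the 4 replicates of each group as independent biological ones, whose RNA was isolated in parallel. The study's methods state that worms that had burst were washed away before collection, so the libraries describe the animals that stayed intact.

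The libraries held 21266999 to 25416073 gene counts in light plus ATR, 19859400 to 29379938 in light minus ATR, 25804736 to 32374032 in dark plus ATR and 19264325 to 28704269 in dark minus ATR.

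The 37 genes lie on all 6 chromosomes of the build WBcel235, with 14 on chromosome V, 8 on X, 5 on II, 4 on IV, 3 on III and 3 on I. The annotation lists 36 as protein coding and *nas-40* as a pseudogene. Neighbouring members formed 2 runs on chromosome V, *nas-16* to *nas-19* within 10.4 kb (11392320 to 11402710) and *nas-20* to *nas-22* within 7.08 kb (11470925 to 11478007).

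Levels within the family spanned several orders of magnitude. Per length, in counts per 1000000 (CPM) and kilobase of exon, *nas-11* was highest in dark minus ATR at 23.6 ± 0.563, followed by *nas-20* at 19.7 ± 1.95 and *nas-37* at 11.02 ± 1.099 (SD, n = 4). The libraries of these 3 genes did not overlap on this scale, with ranges of 23.04 to 24.37, 18.20 to 22.57 and 9.989 to 12.57. Next came *nas-9* at 7.79 ± 0.723, also apart from its neighbours, then *nas-39* at 3.64 ± 0.297, *nas-3* at 2.95 ± 0.731 and *nas-7* at 2.58 ± 0.370. The ranges of *nas-39*, *nas-3* and *nas-7* overlapped in this order (3.244 to 3.931, 2.289 to 3.828 and 2.235 to 3.049), so those neighbours were not told apart. The next 20 tested members averaged between 0.272 (*nas-29*) and 1.496 (*nas-22*), in small steps with wide overlap.

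**Figure D1:**
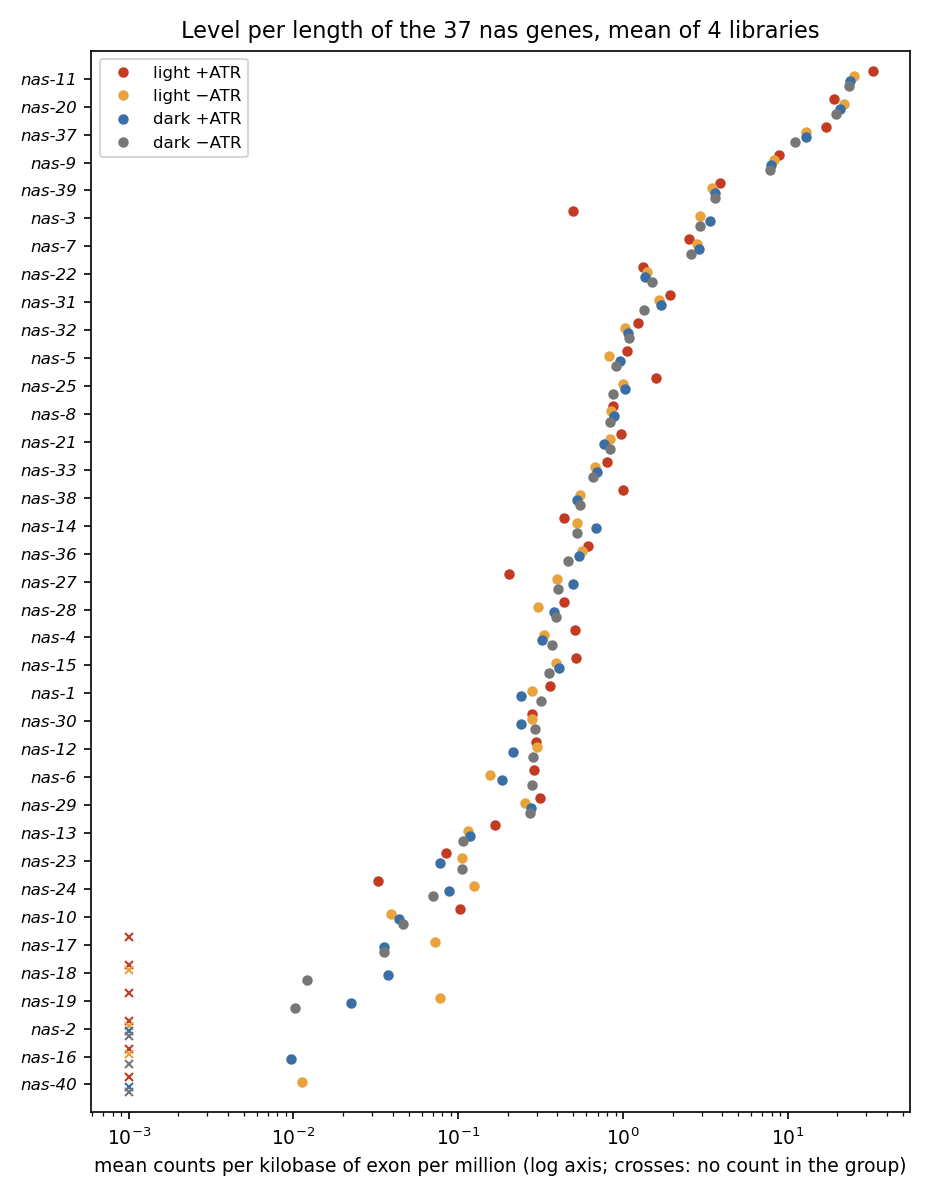
Mean level of the 37 *nas* genes in CPM per kilobase of exon (log axis), 1 point per group of 4 libraries, with crosses for groups that had no count. *nas-11*, *nas-20* and *nas-37* lead in every group, and the light plus ATR point of *nas-3* lies far to the left of its 3 control points.

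The other 10 members fell below the filter on low counts and were not tested. Over all 16 libraries *nas-13* had 87 counts, *nas-23* had 68, *nas-10* and *nas-24* had 43 each, *nas-17* had 17, *nas-19* had 12 and *nas-18* had 4. *nas-16* and the pseudogene *nas-40* had 1 count each, and *nas-2* had none after rounding. Only *nas-23* had a count in every library, and the highest value of any of the 10 genes in a library was 16. All members of the run *nas-16* to *nas-19* were in this set, while the adjacent *nas-20*, *nas-21* and *nas-22* all passed the filter.

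Counts of some scarce members differed between replicate numbers. *nas-17* had no count in light plus ATR, and its replicate 2 libraries otherwise held 6 counts in light minus ATR, 5 in dark plus ATR and 3 in dark minus ATR, which together are 14 of its 17 counts. *nas-19* likewise had no count in light plus ATR and none in any library of replicates 1 and 3. Of the 43 counts of *nas-24*, 27 were in replicate 2 libraries and none in replicate 3. The tested *nas-15* had 37, 22, 0 and 47 counts in light plus ATR, against 48, 5, 12 and 15 in light minus ATR, 52, 7, 6 and 33 in dark plus ATR and 28, 22, 6 and 4 in dark minus ATR, in the order of replicates 1 to 4. Its counts varied widely within every group, and the groups overlapped.

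**Figure D2:**
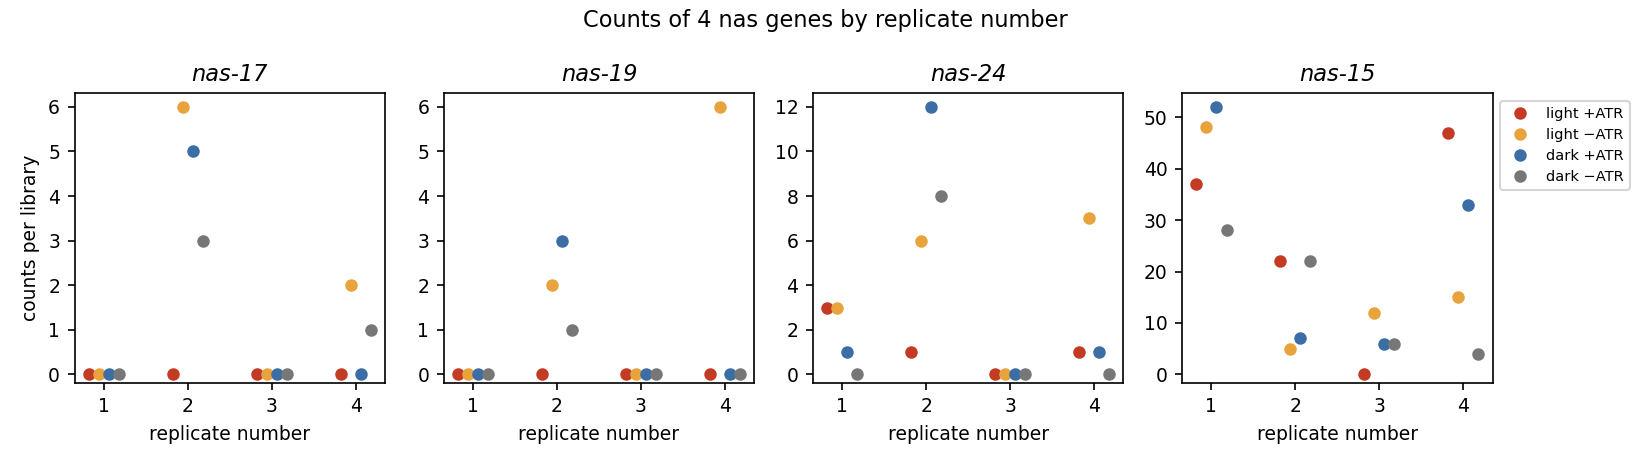
Counts per library of *nas-17*, *nas-19*, *nas-24* and *nas-15* by replicate number, 1 point per library, coloured by group. The counts of *nas-17* and *nas-24* lie mainly in replicate 2, and those of *nas-15* run between 0 and 52.

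The first comparison asks what ATR, the cofactor of the channel, did under pulsed light, with light minus ATR as the control. Of the 27 tested *nas* genes 6 were called (edgeR's quasi-likelihood test, Benjamini-Hochberg adjusted p under 0.05 over all 15044 genes tested). *nas-11*, *nas-37*, *nas-38*, *nas-25* and *nas-4* were higher in light plus ATR, by 1.29-fold to 1.84-fold, and *nas-3* was 5.93-fold lower. The 6 calls are 22.2% of the tested members, beside 16.3% of all genes (8.39% higher and 7.9% lower). Without light minus ATR replicate 1, light minus ATR replicate 2 or light plus ATR replicate 4 only 3 were called each time, *nas-3*, *nas-11* and *nas-37*. Of all genes 1262 were higher and 1188 lower, against 2057 and 598 with library totals and 935 and 399 with ERCC spike-ins as the scaling. Of the 27 members 20 had a positive log2 fold change, beside 52% of all genes, and the family's median was 0.21, beside 0.01 over all genes. In bulk RNA of whole worms, fewer cells of a type and less RNA per cell cannot be told apart.

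Marker genes of body wall muscle summed to 4971 to 5188 CPM in light plus ATR, against 3797 to 4615 CPM in light minus ATR, and 6 of their 7 members were called higher. Of 5 pharyngeal muscle markers 4 were higher (summed 533.6 to 545.4 CPM, against 370.1 to 498.8 CPM). Of 8 intestine markers 3 were higher and 2 lower (4775 to 5036 CPM, against 3491 to 3786 CPM). The intestine sum mainly follows 1 gene, *asp-1*, which averaged 3502 CPM in light plus ATR and 2290 CPM in light minus ATR. Of 7 hypodermis markers only *col-19*, an adult cuticle collagen, was called, as lower (1288 to 1704 CPM, against 1574 to 1869 CPM). Most of that sum was *col-19* itself (mean 1269 CPM in light plus ATR, against 1542 CPM in light minus ATR). *wrt-10* (5.841, against 3.343 CPM), *rol-6* (6.947, against 4.686 CPM) and *dpy-7* (4.094, against 2.505 CPM) averaged higher, and *lin-26*, *elt-3* and *grd-10* averaged lower. Of 7 neuron markers 1 was higher (161.9 to 171.2 CPM, against 135.7 to 154.6 CPM), and of 6 tested pharyngeal gland markers 1 was higher and 1 lower (38.62 to 45.68 CPM, against 33.51 to 37.66 CPM). Of 5 tested embryo markers 1 was higher and 1 lower (16.21 to 19.96 CPM, against 16.82 to 19.42 CPM). Most of the embryo sum was *elt-1* (mean 11.64 CPM in light plus ATR, against 10.93 CPM in light minus ATR) and *hlh-1* (4.337, against 3.388 CPM). *pes-10* averaged 1.331 CPM, against 2.531 CPM, so the sum hides its difference. None of 7 germline markers (6233 to 6942 CPM, against 6939 to 7410 CPM) and none of 8 sperm markers (276.6 to 432.5 CPM, against 216.4 to 300.1 CPM) was called by edgeR, where 3 and 1 had an unadjusted p under 0.05, and DESeq2 called 2 germline and 1 sperm marker. No listed marker lacked counts altogether. The part of these marker differences in the *nas* results was not tested.

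The *nas-3* gene (WBGene00003522, chromosome V, 9478163 to 9479601, plus strand, 4 exons) had the largest fold change of the tested members. Its levels were 0.881, 0.582, 0.501 and 0.266 CPM in light plus ATR, against 4.80, 4.31, 2.41 and 1.63 CPM in light minus ATR, in the order of replicates 1 to 4. The highest light plus ATR library lay below the lowest light minus ATR library. Dark plus ATR had 4.53, 3.70, 3.90 and 2.98 CPM and dark minus ATR had 4.29, 3.66, 2.70 and 2.56 CPM, so light plus ATR was below all 12 control libraries. In each of the 4 groups the library of replicate 1 was the highest and that of replicate 4 the lowest. The log2 fold change against light minus ATR was -2.57 (SE 0.37, 95% interval -3.29 to -1.85, adjusted p = 0.0001194). It rests on 56 counts in the 4 libraries of light plus ATR, against 315 counts in those of light minus ATR.

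The most abundant member, *nas-11* (WBGene00003530, chromosome X, 6713577 to 6716357, plus strand), changed little in size but beyond the spread of its libraries. It had 52.7, 56.9, 60.2 and 62.5 CPM in light plus ATR, against 43.1, 45.2, 45.8 and 45.8 CPM in light minus ATR. The lowest light plus ATR library was above the highest of the 12 controls, which was 46.2 CPM in dark plus ATR. The log2 fold change was 0.37 (SE 0.05, 95% interval 0.26 to 0.47, adjusted p = 3.493e-05). On the opposite strand 163 bases of its exons are shared with *smf-2*, whose own level averaged 0.00949 CPM in light plus ATR, against 0.0367 CPM in light minus ATR.

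The protease *nas-37* (WBGene00003553, chromosome X, 9944844 to 9949063, minus strand) is needed for shedding of the old cuticle at the moult. The study describes the worms as young adults, and how far each library was past the last moult was not tested. Its levels were 41.0, 45.2, 39.3 and 47.0 CPM in light plus ATR, against 34.4, 31.6, 29.3 and 35.0 CPM in light minus ATR. All 4 light plus ATR libraries were above all 12 controls. The log2 fold change was 0.40 (SE 0.08, 95% interval 0.25 to 0.56, adjusted p = 0.001355). Its overlap with the opposite-strand gene *C17G1.5* is 32 exon bases, and that gene had a log2 fold change of 0.32 (adjusted p = 0.1389).

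*nas-38* (WBGene00003554, chromosome X, 558157 to 563708, plus strand) acts on the sleep-like quiescence that accompanies the moult. It had 2.07, 1.61, 2.35 and 3.11 CPM in light plus ATR, against 0.812, 0.991, 1.47 and 1.79 CPM in light minus ATR. These groups overlapped, since replicate 2 of light plus ATR was below replicate 4 of light minus ATR. The log2 fold change was 0.88 (SE 0.24, 95% interval 0.41 to 1.34, adjusted p = 0.01341). It was no longer called without light minus ATR replicate 1 or 2 or light plus ATR replicate 4 (adjusted p = 0.06259, 0.05295 and 0.06316).

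*nas-25* (WBGene00003544, chromosome II, 8826069 to 8828215, plus strand) had 2.11, 2.60, 1.66 and 2.09 CPM in light plus ATR, against 1.45, 1.34, 1.03 and 1.53 CPM in light minus ATR. The groups did not overlap, although the dark plus ATR library of replicate 3, at 1.71 CPM, exceeded the lowest light plus ATR library. The log2 fold change was 0.65 (SE 0.21, 95% interval 0.24 to 1.06, adjusted p = 0.03572). Of the 8 leave-out fits, 6 did not call it (adjusted p up to 0.1129), and the call held only without light plus ATR replicate 3 or light minus ATR replicate 4.

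*nas-4* (WBGene00003523, chromosome III, 6411578 to 6415656, minus strand) had 1.11, 1.21, 1.12 and 1.33 CPM in light plus ATR, against 0.845, 0.842, 0.848 and 0.561 CPM in light minus ATR. Light plus ATR was above all 12 controls. The log2 fold change was 0.61 (SE 0.20, 95% interval 0.21 to 1.00, adjusted p = 0.04277), the closest of the 6 to the threshold. It missed the threshold in 13 of 15 alternative analyses, including DESeq2 (adjusted p = 0.1186) and every fit without 1 of the 8 libraries (0.05707 to 0.1115). Its exons share 437 bases with *C05D11.5* on the same strand, whose log2 fold change was -0.04 (adjusted p = 0.8795), so its counts are uncertain.

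**Figure D3:**
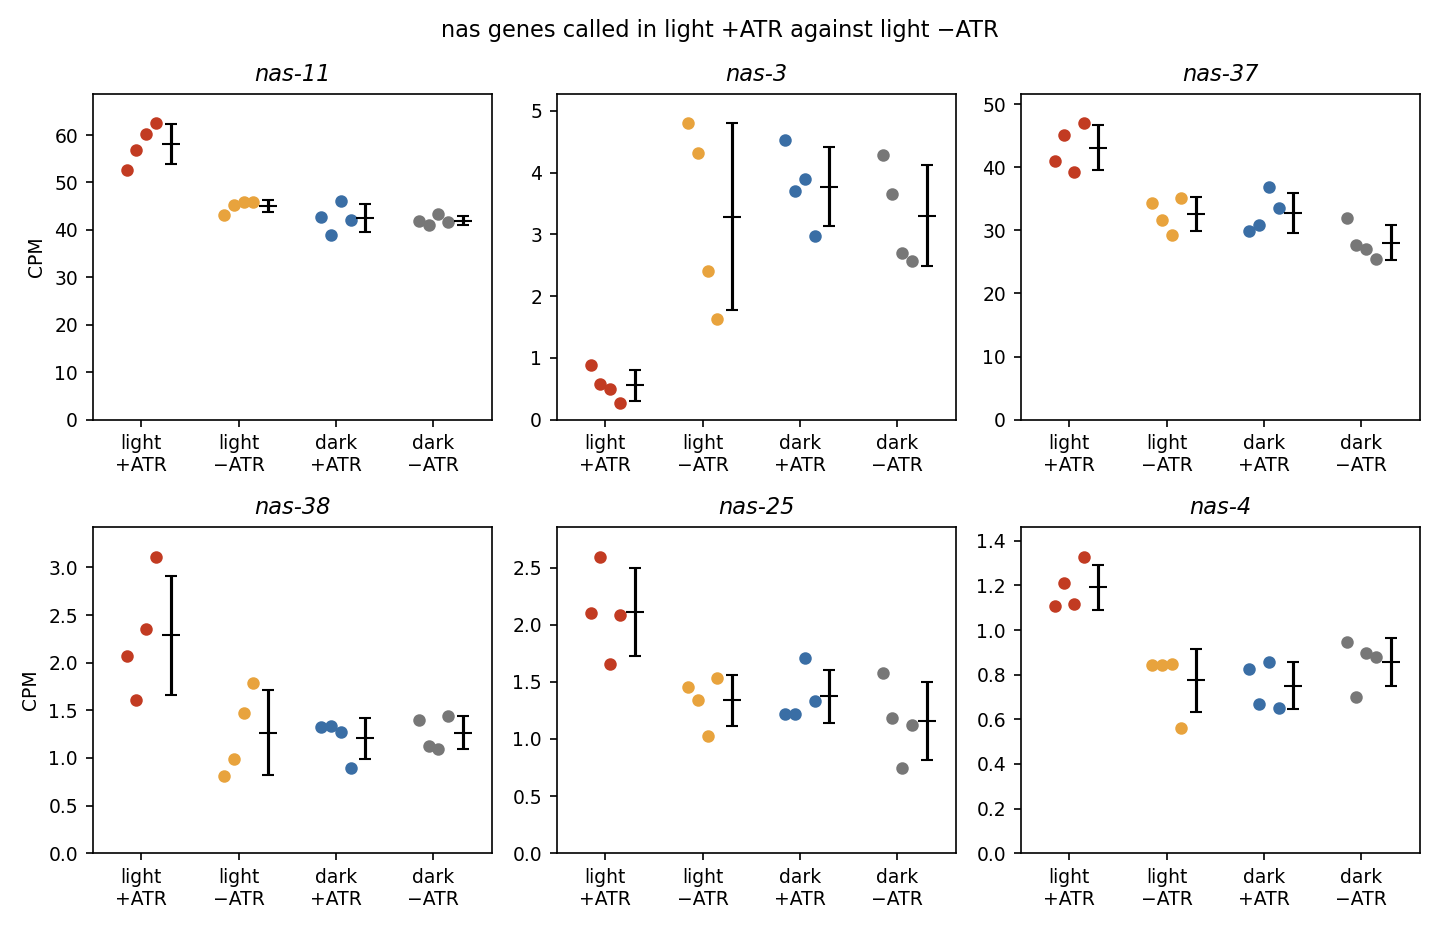
CPM of the 6 *nas* genes called between the illuminated groups with and without ATR, 1 point per library, with the mean and SD of the 4 libraries beside each group. *nas-11*, *nas-37* and *nas-4* lie above all 12 control libraries in light plus ATR and *nas-3* below all 12, while *nas-38* and *nas-25* overlap with a control group.

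The other members with a known role were not called. *nas-36*, which also acts at the moult, had 1.46, 1.43, 1.078 and 1.56 CPM in light plus ATR, against 1.56, 1.14, 1.16 and 1.22 CPM in light minus ATR, and the groups overlapped (log2 fold change 0.11, 95% interval -0.31 to 0.52, adjusted p = 0.7643). *nas-7*, which serves the building of the pharyngeal grinder, had 2.80, 3.36, 3.50 and 3.91 CPM, against 3.55, 3.42, 4.10 and 4.13 CPM, again with overlap (-0.16, 95% interval -0.43 to 0.10, adjusted p = 0.4364).

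*nas-6*, its partner in grinder formation, had 0.421, 0.492, 0.270 and 0.494 CPM in light plus ATR, against 0.304, 0.198, 0.312 and 0.102 CPM in light minus ATR. Replicate 3 broke the separation of its groups, and the log2 fold change was 0.80 (95% interval 0.01 to 1.60, adjusted p = 0.1817). Although this interval is wholly positive, the unadjusted p of *nas-6* was not under 0.05, since the intervals rest on a normal approximation. The Tolloid-like *nas-39* had 13.8, 12.9, 14.98 and 12.5 CPM in light plus ATR, against 10.1, 11.6, 13.6 and 13.01 CPM in light minus ATR. Its groups overlapped (0.17, 95% interval -0.01 to 0.34, adjusted p = 0.2173), and 276 exon bases shared with *F38E9.1* on the same strand make its counts uncertain.

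*nas-20*, the second most abundant member per length, had 19.7, 20.6, 24.7 and 25.6 CPM in light plus ATR, against 22.9, 24.9, 26.0 and 30.5 CPM in light minus ATR. The groups overlapped, and the log2 fold change of -0.20 missed the threshold (95% interval -0.38 to -0.02, adjusted p = 0.1452). Among the 15 alternatives *nas-20* was called only with replicate number as a block (adjusted p = 0.04911), and no label says that a number marks a shared batch. Of the remaining 16 tested members, *nas-27* had the lowest fold change at -1.02 (95% interval -1.82 to -0.23, adjusted p = 0.0882). It was called without light plus ATR replicate 2 (-1.42, adjusted p = 0.03379) and without light minus ATR replicate 4 (-1.24, adjusted p = 0.04014). *nas-28*, at 0.53 (adjusted p = 0.2318), had no overlap between its groups. The log2 intervals of the scarce *nas-15* (-1.46 to 2.14) and *nas-1* (-0.99 to 1.92) were the widest, and large changes in either direction lay inside them. *nas-31* was at 0.21, and the other 11 members lay between -0.26 (*nas-14*) and 0.37 (*nas-5*), with adjusted p from 0.2375 to 0.9749.

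**Figure D4:**
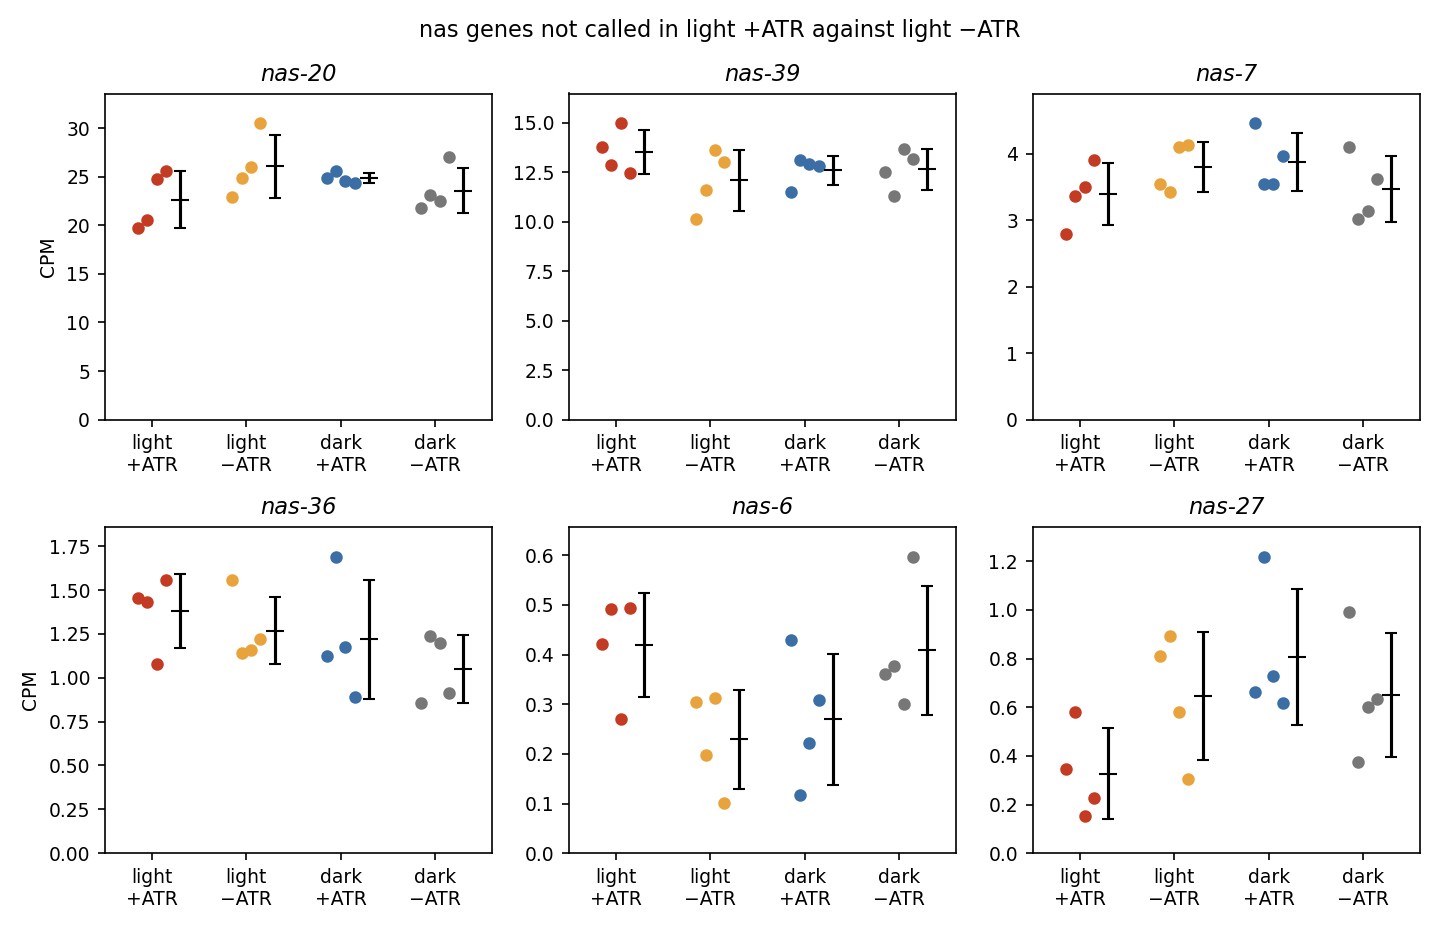
CPM of *nas-20*, *nas-39*, *nas-7*, *nas-36* and *nas-6*, the members with known roles or high levels that were not called, and of *nas-27*, 1 point per library, with the mean and SD of the 4 libraries beside each group. The light plus ATR and light minus ATR points overlap in each panel.

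**Figure D5:**
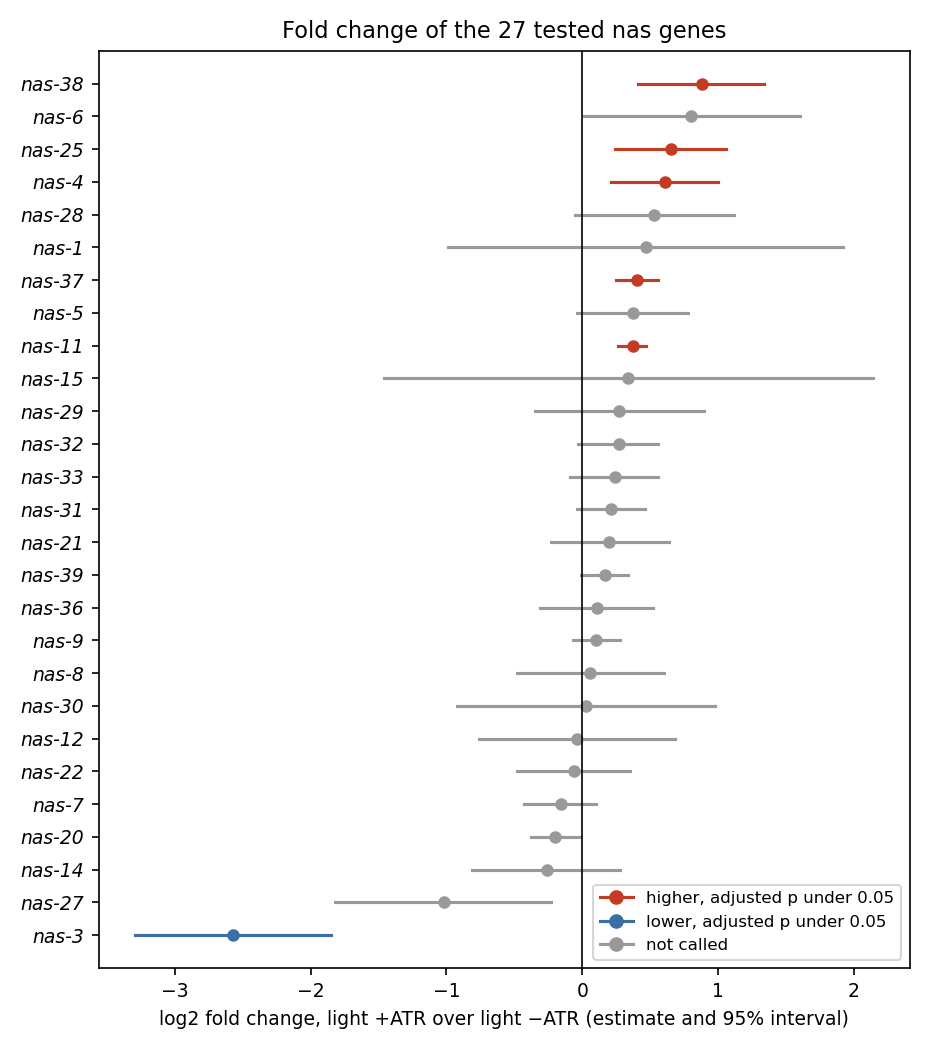
Log2 fold change of the 27 tested *nas* genes in light plus ATR over light minus ATR, with 95% intervals, ordered by size. The 5 genes called higher lie between 0.37 and 0.88, and *nas-3*, at -2.57, lies far from the rest.

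By the sequence-based subgroups of the family, subgroup V (*nas-33*, *nas-36*, *nas-37* and *nas-38*) had 2 of 4 members called higher and all 4 fold changes positive, with a median log2 fold change of 0.32. Over all genes 8.39% were higher and 52% had a positive value, so these counts of few genes are only a description, and the call of *nas-38* was lost in 3 of the 8 leave-out fits named above. Subgroup I (*nas-1* to *nas-5*) held 1 higher and 1 lower call among 4 tested members, *nas-4* and *nas-3*. Subgroups II and III had 1 higher call each among 8 tested members, *nas-11* and *nas-25*, with medians of 0.08 and 0.12. Neither *nas-31* nor *nas-32* of subgroup IV was called, and *nas-39* is the only member of subgroup VI.

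As a sum, the 37 genes took 172.5 to 201.6 CPM in light plus ATR, 157.4 to 170.0 CPM in light minus ATR, 154.7 to 164.0 CPM in dark plus ATR and 144.3 to 153.7 CPM in dark minus ATR. On this scale the light plus ATR libraries did not overlap with the controls. Relative to the ERCC spike-ins, as counts per 1000 of theirs, the sum was 20.76 to 26.47 in light plus ATR, 17.97 to 22.92 in light minus ATR, 19.16 to 21.51 in dark plus ATR and 15.66 to 18.91 in dark minus ATR, so that light plus ATR overlapped with light minus ATR and dark plus ATR. *nas-11*, *nas-20* and *nas-37* together made up 65.71 to 67.95% of the family's counts in light plus ATR, 63.69 to 65.5% in light minus ATR, 61.59 to 65.65% in dark plus ATR and 61.9 to 63.56% in dark minus ATR.

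The comparisons of light plus ATR with the dark groups use the same 4 light plus ATR libraries, so their values stand side by side and are not independent of the first. Against dark plus ATR, 7 of the 27 members were called (25.9%, beside 27.7% of all genes). They were *nas-11* (log2 fold change 0.45), *nas-37* (0.39), *nas-38* (0.93), *nas-4* (0.66) and *nas-25* (0.61) as higher, and *nas-3* (-2.75, 6.74-fold lower) and *nas-27* (-1.30, adjusted p = 0.01558) as lower. *nas-27* had 0.345, 0.582, 0.154 and 0.228 CPM in light plus ATR, against 0.661, 1.22, 0.729 and 0.616 CPM in dark plus ATR, without overlap. It was not called without dark plus ATR replicate 2 or light plus ATR replicate 3 (adjusted p up to 0.06126). Leaving out dark plus ATR replicate 4 or light plus ATR replicate 4 removed the call of *nas-4* (adjusted p = 0.05512 and 0.05192), as did DESeq2 (0.05737), and leaving out replicate 1, 2 or 4 of either group removed that of *nas-25* (up to 0.1022). With scaling to the ERCC spike-ins 3 members were higher and 2 lower, beside 1677 higher and 635 lower of all genes. Over all genes that scaling called 2312, against 4169 in the main fit. Neither *nas-4* (adjusted p = 0.05343) nor *nas-25* (0.05818) was called under it.

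Against dark minus ATR, 6 of 27 were called (22.2%, beside 36.9% of all genes). *nas-11* (0.47), *nas-37* (0.62), *nas-25* (0.85), *nas-38* (0.84) and *nas-31* (0.53, adjusted p = 0.00328) were higher and *nas-3* was 5.87-fold lower (-2.55). *nas-31* had 4.33, 3.76, 4.47 and 4.18 CPM in light plus ATR, against 3.34, 2.63, 2.85 and 2.74 CPM in dark minus ATR. Its groups did not overlap here, whereas its log2 fold change against light minus ATR was 0.21 (adjusted p = 0.2659). *nas-4* (0.47, adjusted p = 0.07145) and *nas-27* (-1.02, adjusted p = 0.05329) were not called against dark minus ATR.

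Cell type markers also differed in the comparisons with the dark groups. Of all genes 27.7% were called in either direction against dark plus ATR and 36.9% against dark minus ATR. Of the 8 sperm markers all 8 were higher against each dark group, with a median log2 fold change of 0.72 against dark plus ATR and 0.91 against dark minus ATR. They summed to 276.6 to 432.5 CPM in light plus ATR, 174.2 to 253.1 CPM in dark plus ATR and 160.1 to 217.1 CPM in dark minus ATR. Light minus ATR, at 216.4 to 300.1 CPM, also had a median of 0.56 against dark minus ATR, where none of the 8 was called. Of 7 germline markers 4 were lower against each dark group (6233 to 6942 CPM in light plus ATR, 7292 to 7710 CPM in dark plus ATR and 6890 to 7701 CPM in dark minus ATR). All 7 body wall muscle markers were higher against both (4971 to 5188 CPM in light plus ATR, 3991 to 4392 CPM in dark plus ATR and 3796 to 4193 CPM in dark minus ATR). Of 5 pharyngeal muscle markers 4 were higher against dark plus ATR and 5 against dark minus ATR, and of 7 neuron markers 3 and 4. Of 8 intestine markers 4 were higher and 2 lower against dark plus ATR, and 3 higher and 2 lower against dark minus ATR. Of 7 hypodermis markers 1, *wrt-10*, was higher against dark plus ATR, and 1 was higher and 1 lower against dark minus ATR. Their part in the *nas* calls was not tested.

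Over the 12 control libraries at once, 4 of the 27 tested members were separated from light plus ATR without overlap, *nas-4*, *nas-11* and *nas-37* above and *nas-3* below, beside 13.6% of all genes tested.

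The controls themselves show light without a working channel and ATR without light. In light minus ATR against dark minus ATR, none of the 27 members was called by edgeR or by DESeq2, beside 0% of all genes in edgeR and 172 genes in DESeq2, and 2 had an unadjusted p under 0.05. These were *nas-37*, with a log2 fold change of 0.22 (adjusted p = 0.2458), and *nas-31*, with 0.32. In dark plus ATR against dark minus ATR, again none was called by either tool, beside 0.0665% of all genes in edgeR and 24 genes in DESeq2, and the same pair had an unadjusted p under 0.05, *nas-37* with 0.23 (adjusted p = 0.5765) and *nas-31* with 0.34. Both comparisons share the dark minus ATR libraries. For *nas-3* the log2 fold changes were 0.02 (95% interval -0.57 to 0.61) for light without ATR and 0.20 (-0.38 to 0.78) for ATR in the dark. For *nas-11* they were 0.10 (-0.01 to 0.21) and 0.02 (-0.09 to 0.13).

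Whether the difference made by ATR was another one under light than in the dark was tested as the interaction. *nas-3* and *nas-11* passed, 7.41% of the tested members beside 5.23% of all genes. The interaction was -2.77 on the log2 scale for *nas-3* (SE 0.47, adjusted p = 0.00156) and 0.35 for *nas-11* (SE 0.08, adjusted p = 0.006142). With libraries scaled to the ERCC spike-ins the value for *nas-11* was 0.24 and missed the threshold (adjusted p = 0.4619). The interaction of *nas-38* (0.96, adjusted p = 0.1205), *nas-4* (0.80, 0.1274), *nas-25* (0.41, 0.5518) and *nas-37* (0.18, 0.4872) did not pass.

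Other gene groups of the same biology were set beside the family under pulsed light, for ATR against no ATR, with the same test. Over all genes tested in that comparison 8.39% were higher and 7.9% lower, and the median log2 fold change was 0.01. None of the 3 astacins that carry another name was called by edgeR or DESeq2, and 1 had an unadjusted p under 0.05 in edgeR. *hch-1*, the hatching protease, had a log2 fold change of 0.19, *dpy-31*, a procollagen C-proteinase, -0.10 (adjusted p = 0.2455) and *toh-1* -0.22 (adjusted p = 0.1529). Of the 4 proprotein convertases, which cut propeptides from secreted proteins, *aex-5* (0.50) and *egl-3* (0.28) were higher. Of 3 tested secreted protease inhibitors the TIMP-like *cri-2* was lower (-0.26), and of 4 tested matrix metalloproteases *zmp-1* was higher (0.79).

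Among 9 ADAM and ADAMTS proteases *adt-3* was higher (0.42), and *mig-17* (-0.65) and *adm-4* (-0.24) were lower. Of 22 tested neprilysin-like peptidases, which are also zinc proteases, 5 were higher and none was lower, with a list median of 0.32, and among them were *nep-17* (0.46) and *nep-22* (0.27). Of 24 tested moulting and apical matrix genes *qua-1* was higher (0.74), and *nekl-2* (-0.45), *mlt-4* (-0.59) and the peroxidase *mlt-7* (-0.39) were lower, while the list's median was 0.19. A list of 11 genes held enzymes of collagen processing together with cuticle collagens. In it *pdi-2* (-0.20), a protein disulfide isomerase subunit of the prolyl 4-hydroxylase, and *mlt-7* were lower, and none was higher. The list's median of 0.35 does not describe the enzymes. It came from collagens such as *dpy-7* (0.68) and *dpy-17* (0.51), whose values did not pass the test. Among the other enzymes *dpy-18* averaged 35.94 CPM in light plus ATR, against 38.03 CPM in light minus ATR. *phy-2* averaged 20.83, against 22.09 CPM, and *bli-3* 21.07, against 20.44 CPM.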

How the data were processed

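Whole-worm poly(A) RNA (TruSeq stranded kit, ERCC spike-ins) was sequenced from 4 groups of 4 libraries. The authors ran an nf-core RNA-seq pipeline on WBcel235 and deposited salmon's estimated counts of each gene, not normalized. A combined matrix named for TPM held the same estimated counts (largest difference 1.2e-10) and gave the symbols. Whether the counting used strand is not given in the sources used here, so genes that share exon bases are uncertain. The submitters' processing notes name R 4.0.3 and DESeq2 1.30.1. Depth was 19264325 to 32374032 gene counts per library. Counts cover the libraries' reads, not molecules.

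Counts were rounded to whole numbers and analysed with edgeR 4.0.16 (R 4.3.3, limma 3.58.1): filterByExpr on the 4 groups, TMM, robust quasi-likelihood F test, all 16 libraries in one fit with a coefficient per group, and Benjamini-Hochberg adjustment over 15044 genes (threshold 0.05). CPM used effective library sizes. SEs were derived from the fold change and F, and 95% intervals from the SEs with a normal quantile. The intervals are therefore approximate and somewhat narrower than the F test implies. Exon lengths, positions and overlaps came from Ensembl release 115 on WBcel235 (46817 of 46904 IDs matched, all 37 members among them). No sequences are printed. The code of the fit was also run on simulated counts. Those had far fewer changed genes than were called here, balanced in direction, so that run does not bear on the choice of scaling.

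Full values are given for members called in the first comparison or the interaction, the 3 with the highest level per length, and those with a known role, and other members by counts and ranges. *nas-27*, *nas-28*, *nas-31*, *nas-1*, *nas-15* and the genes in the account of replicate numbers were singled out after their values were seen. Members, lists and tests were chosen with earlier results of these data known, and the subgroups were listed after the counts had been read. Alternatives were DESeq2 1.42.0, its size factors, library totals or ERCC totals as scaling, no filter, the compared groups only, replicate number as a block, and each library left out. Their values for single genes in the dark comparisons and the interaction were added after seeing the data. Correlations of same-numbered libraries' deviations ran from -0.177 to 0.189 and were over 0.1 for every number in no comparison, and no label says that a number marks a shared batch, so replicate numbers were not used as pairs.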

Additional observations from a re-analysis of the deposited data

Results flagged for a closer look

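In the light minus ATR group *nas-4* had 0.561 CPM in replicate 4, far below the other 3 libraries (0.842 to 0.848 CPM). In the dark plus ATR group *nas-38* had 0.890 CPM in replicate 4, below the other 3 libraries (1.27 to 1.34 CPM). Each gap was large for a group of 4 by Dixon's test, which chance alone sets off in about 1 of 20 groups, and 108 groups were tested. Without light minus ATR replicate 4 the log2 fold change of *nas-4* was 0.49 (adjusted p = 0.1115).

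The effect of ATR differed between light and dark for *nas-3*, with an interaction of -2.77 on the log2 scale, and for *nas-11*, with 0.35. For *nas-3* the log2 fold change by ATR was -2.57 under light and 0.20 in the dark, and for *nas-11* it was 0.37 under light and 0.02 in the dark. The interaction of *nas-11* was not called with scaling to the ERCC spike-ins (0.24, adjusted p = 0.4619).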

How the results depend on the processing

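Between light plus ATR and light minus ATR, 5 or 6 *nas* genes were called under every setting that kept all libraries, and 3 to 6 with 1 library left out. The 3 that remained without light minus ATR replicate 1, without light minus ATR replicate 2 or without light plus ATR replicate 4 were *nas-3*, *nas-11* and *nas-37*, which were called in all 15 alternatives (log2 fold change -2.90 to -2.31, 0.33 to 0.44 and 0.35 to 0.47). Replicate numbers were not taken as pairs (same-number correlations -0.003 to 0.189 in this comparison, 3 of 8 libraries closest to their own number), although 6 of 8 libraries of light minus ATR and dark minus ATR were closest to their own number, a hint from the data only. With the replicate block 6 genes were called, *nas-20* gained (adjusted p = 0.04911) and *nas-4* lost (0.05159), and 2791 of all genes were called, against 2450 (interaction 1062, against 787). The interaction kept 1 call, *nas-3*, under ERCC scaling. ERCC scaling called 1334 of all genes in the first comparison, against 2450. The sign turned only in 5 uncalled genes. *nas-12* had 0.03 with library totals, 0.02 with ERCC scaling and -0.31 to 0.22 with a library left out, *nas-22* had 0.01 with library totals and -0.21 to 0.07 with a library left out, and *nas-30* had 0.00 in DESeq2, -0.04 with the replicate block and -0.28 to 0.30 with a library left out. Leaving out a library gave -0.14 to 0.21 for *nas-8* and -0.06 to 1.02 for *nas-15*. The causes were not tested. Of the 24 to 27 members with a value, 17 to 22 had a positive fold change over all settings. ERCC scaling put the median log2 fold change of all genes at 0.16 in light plus ATR, 0.11 in light minus ATR and 0.15 in dark plus ATR, each against dark minus ATR. Depth limits genes such as *nas-6*, with 2 to 17 counts per library.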
